A study of Mus musculus with 48 samples.

Results

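The comparison described here is the response of the tibial metaphysis to casting in 3 wild-derived mouse strains, set against the same response in 4 classical laboratory strains. Libraries were chosen by strain label alone: 42 of the 48 libraries in the series, both limbs of 21 mice, with 3 mice in each of 7 strains. The wild-derived strains were CAST/EiJ, PWK/PhJ and WSB/EiJ (9 mice, 18 libraries), and the classical strains were 129S1/SvImJ, C57BL/6J, NOD/ShiLtJ and NZO/HlLtJ (12 mice, 24 libraries). A/J, which had 1 usable pair of limbs, was left out. All mice were males of 19 weeks, inbred and with no engineered allele named in the labels. Casting immobilized the left hindlimb for 3 weeks. The free right limb gave each mouse its own control, so that side of the body and casting cannot be told apart. The metaphysis, the flared end of the bone shaft next to the growth plate, was taken whole, so every library mixes bone, marrow and any attached tissue. In such bulk samples fewer cells of a type and less RNA per cell cannot be told apart.

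Bone that carries no load is remodelled: osteoclasts resorb mineral, osteoblasts lay down collagen-rich matrix, and osteocytes buried in the matrix sense strain and regulate both. The metaphysis also holds blood-forming marrow and marrow fat cells, whose amounts vary between mouse strains. Classical laboratory strains descend largely from fancy mice of mixed but mainly Western European origin, while wild-derived strains were inbred from mice trapped in the wild: CAST/EiJ represents the castaneus subspecies, PWK/PhJ the musculus subspecies and WSB/EiJ the domesticus subspecies. The origin classes are therefore not uniform, and the 3 wild-derived strains do not form a single related group.

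Total counts ranged from 5253408 to 14744056 per library, with a median of 7675275. The 3 NZO/HlLtJ immobilized libraries held 13410118 to 14744056 counts against 7746981 to 7857780 in their control limbs. The control library of NZO/HlLtJ mouse 4 stood apart: its 18 tested erythroid genes summed to 779.9 CPM (counts scaled to library size), against 23010 to 103700 in the 9 wild-derived controls. The mean of the erythroid list rose in that mouse by 5.83 on the log2 scale, where the wild-derived mice spanned -1.55 to 0.38. Skeletal muscle genes were present in most libraries and varied widely: their summed level in control limbs spanned 339.9 to 7763 CPM in wild-derived mice and 95.75 to 79440 CPM in classical mice. Library names followed one pattern in PWK/PhJ, WSB/EiJ and C57BL/6J and another in the other strains. What that pattern stands for is not given in the sources used here. Osteoblast markers were abundant in all 42 libraries, with a summed level of at least 5948 CPM.

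The question was whether the wild-derived strains respond to a cast differently from the classical strains. For each gene, the immobilized minus control difference within each mouse was averaged by strain, then over strains with equal weight, and the 2 class means were compared in edgeR's quasi-likelihood model. Of 15948 genes tested, 1 (0.00627%) differed at a false discovery rate (FDR) of 0.05: Bcl7a, which fell further in the wild-derived strains. At an unadjusted p under 0.05 there were 1266 genes (7.94%), 644 with the higher change in the wild-derived strains and 622 with the lower. The standard error of the difference had a median over genes of 0.19 on the log2 scale, and the 95% interval a median reach of 0.40 to either side. That interval is not adjusted for the number of genes, and the FDR threshold asked for more. Differences of 1.80 ± 0.36 (Car3) and 2.49 ± 0.47 (Tmem132b) did not pass it, so a gene that was not called may still differ. DESeq2 on the same design called 20 genes, 14 higher and 6 lower.

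Within each class the cast response itself was measurable. The mean effect passed an FDR of 0.05 in 1527 genes (9.57%) in the wild-derived strains, 997 higher and 530 lower in the immobilized limb. In the classical strains 541 genes (3.39%) passed, 444 higher and 97 lower. The 2 class effects share no mouse. Both passed in 314 genes, which are 20.6% of the wild-derived calls and 58.0% of the classical calls, and 313 of these changed in the same direction. The exception was Cd36, described below. Of the 1213 genes called in the wild-derived mean alone, 1 was called in the difference, and of the 227 called in the classical mean alone, 0. These counts rested on single animals: leaving out 1 mouse at a time gave 630 (without PWK/PhJ mouse 3) to 2547 (without PWK/PhJ mouse 6) calls in the wild-derived mean. The classical mean gave 51 (without C57BL/6J mouse 4) to 1361 (without NZO/HlLtJ mouse 4).

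**Figure D1:**
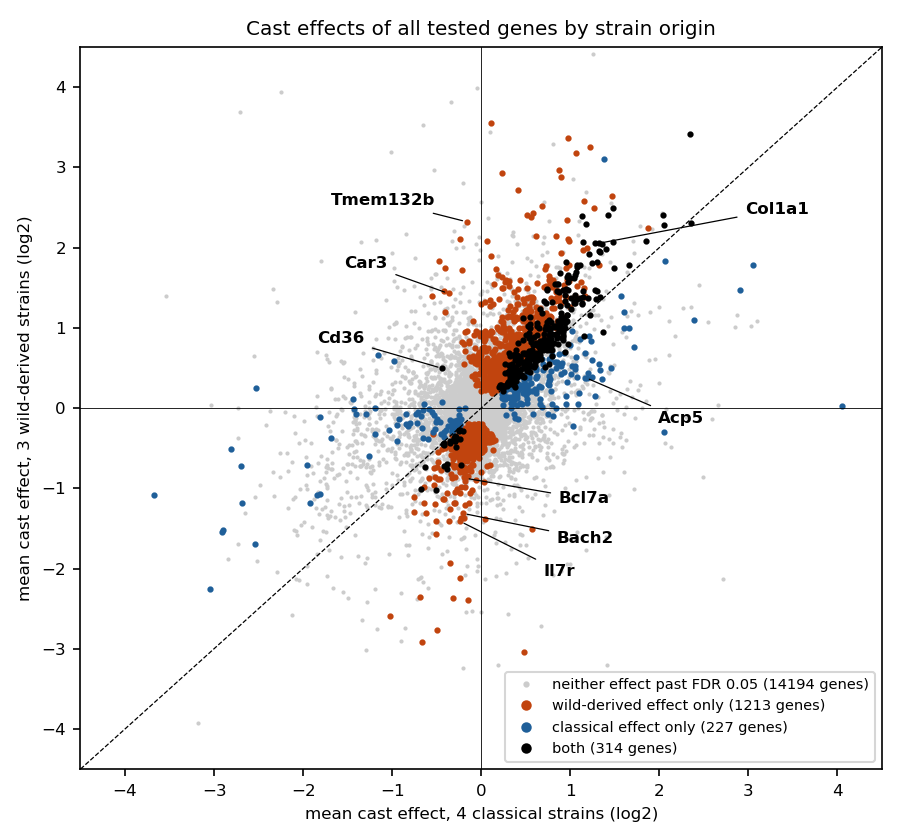
Each point is 1 of the 15948 tested genes, with the mean cast effect of the 4 classical strains on the x axis and that of the 3 wild-derived strains on the y axis (log2, immobilized minus control), coloured by which effect passed an FDR of 0.05; 4 genes lie beyond the axes. Genes called in both classes (black, 314) lie along the dashed line of equal effects, Cd36 alone among them has opposite signs, and Bcl7a is the gene whose distance from the line passed the threshold.

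Bcl7a (chromosome 5, 123343834 to 123374992 in GRCm38, plus strand, protein coding) encodes a subunit of the SWI/SNF chromatin remodelling complex. In the 9 wild-derived mice its level ran from 35.6 to 102 CPM in control limbs (median 63.5) and from 19.5 to 47.4 CPM in immobilized limbs (median 32.6). In the 12 classical mice it ran from 24.4 to 43.7 CPM in control limbs (median 32.7) and from 19.9 to 42.3 CPM in immobilized limbs (median 28.3). The limbs of the wild-derived mice thus differed in the control and came close to the classical level after casting. In CAST/EiJ the 3 control limbs read 88.6, 102 and 89.9 CPM and the immobilized limbs 31.1, 36.8 and 42.3 CPM. In PWK/PhJ the control limbs read 51.8, 64.5 and 63.5 CPM and the immobilized limbs 32.3, 45.8 and 47.4 CPM. In WSB/EiJ the control limbs read 35.6, 51.2 and 51.8 CPM and the immobilized limbs 19.5, 32.6 and 31.8 CPM. The gene was lower in the immobilized limb in 9 of 9 wild-derived mice and 10 of 12 classical mice, the 2 exceptions being NZO/HlLtJ mice.

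The mean Bcl7a effect was -0.87 ± 0.07 (SE) in the wild-derived strains and -0.18 ± 0.06 in the classical strains. The difference was -0.69 ± 0.10 (95% interval -0.90 to -0.49, edgeR FDR 0.0223). Strain effects were -1.35 in CAST/EiJ, -0.53 in PWK/PhJ and -0.74 in WSB/EiJ, all below the lowest classical value, -0.36 in C57BL/6J. Single mice overlapped between the classes, with -0.42 as the smallest fall in a wild-derived mouse and -0.56 as the largest in a classical mouse. Without CAST/EiJ the difference was -0.45 (FDR 0.822). The estimate stayed between -0.74 and -0.65 when any 1 mouse was left out (NZO/HlLtJ mouse 4 gave the -0.65), but the call held in 6 of the 21 such fits. It was lost without any 1 of CAST/EiJ mice 2 and 3, PWK/PhJ mice 3, 4 and 6, WSB/EiJ mice 2, 4 and 5, 129S1/SvImJ mice 2, 3 and 6, C57BL/6J mouse 1, NOD/ShiLtJ mice 4 and 5 and NZO/HlLtJ mouse 5, with an FDR of up to 0.161. B cell marker levels also differed in control limbs, where the 18 B cell genes summed to a median of 686.4 CPM in wild-derived and 316.4 CPM in classical mice. The ranges overlapped (257.5 to 1131 and 149.9 to 517.5 CPM), and a link between Bcl7a and these levels was not tested. With B cell and erythroid scores as terms in the model the Bcl7a difference was -0.65 (FDR 0.223).

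**Figure D2:**
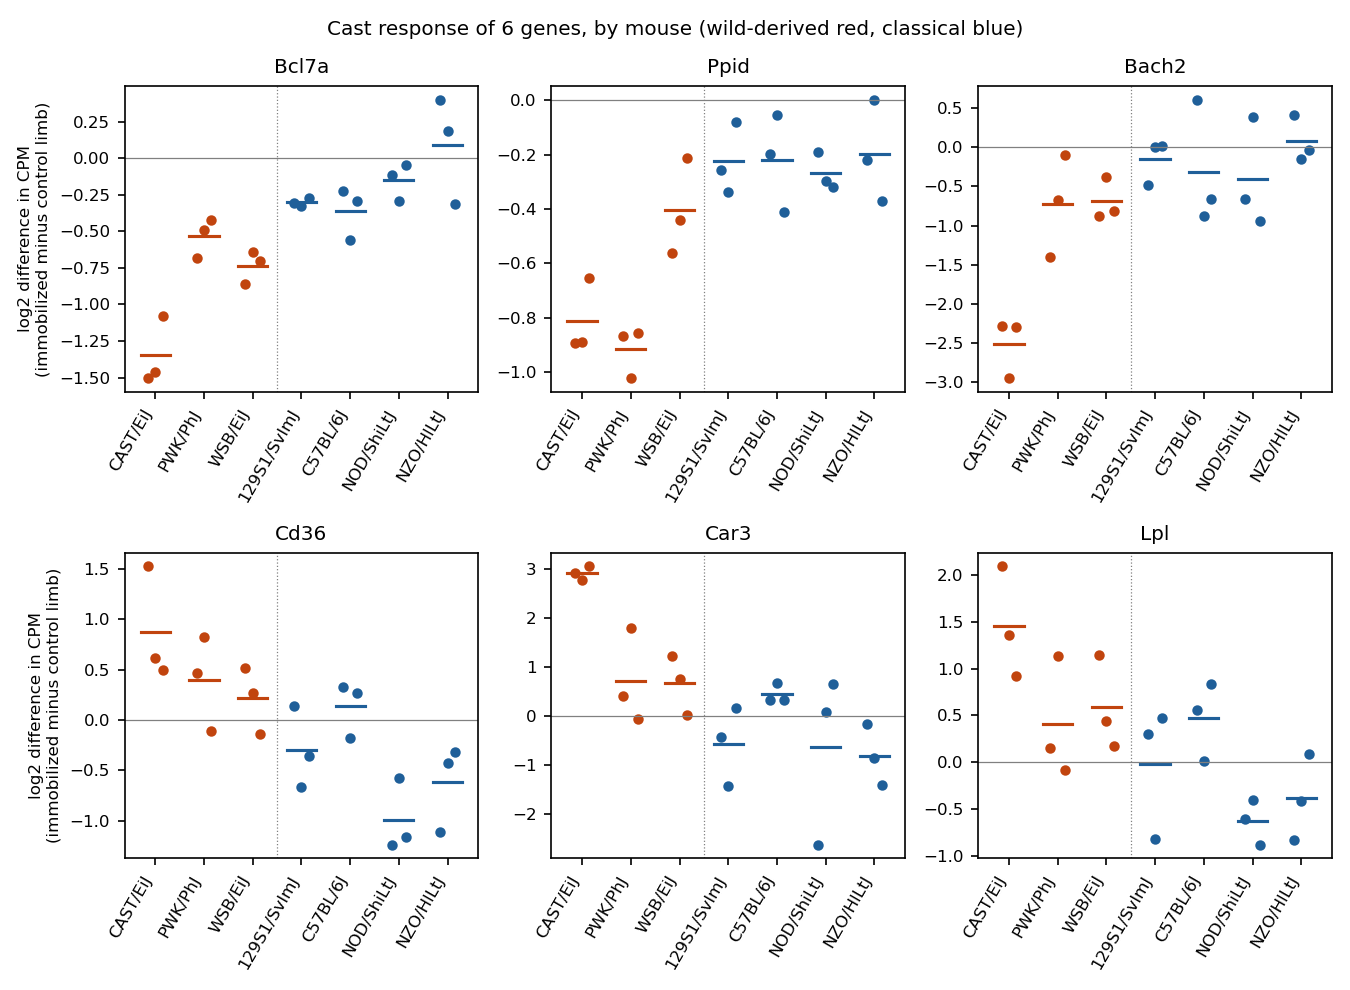
Each point is the log2 difference in CPM between the immobilized and control limb of 1 mouse (y axis) for 6 genes, grouped by strain (x axis; wild-derived red, classical blue), and each bar is the mean of 3 mice. For Bcl7a and Ppid the 3 wild-derived strain means lie below all 4 classical means, for Cd36 and Car3 above them, and in all 6 genes single mice of the classes overlap.

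The gene next in order was Ppid (edgeR FDR 0.0643), which encodes cyclophilin 40, a peptidyl-prolyl isomerase that works as a partner of the Hsp90 chaperone. Its control-limb level was alike in the classes, 51.9 to 76.7 CPM in wild-derived and 46.6 to 70.5 CPM in classical mice. Immobilized limbs read 27.9 to 56.5 CPM (median 34.6) and 36.8 to 63.6 CPM (median 49.1). The fall was largest in PWK/PhJ and CAST/EiJ, whose 6 mice spanned -1.02 to -0.65, and no classical mouse fell below -0.41. In WSB/EiJ the 3 mice read -0.56, -0.44 and -0.21. Both class means passed their own test, at -0.71 (FDR 5.29e-06) and -0.23 (FDR 0.0286), and the difference was -0.49 ± 0.08.

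Chordc1 encodes CHORD-containing protein 1, another partner of Hsp90. It read 38.7 to 59.6 CPM in wild-derived control limbs and 18.8 to 42.4 CPM in the immobilized limbs, against 35.6 to 48.7 and 24.0 to 41.9 CPM in classical mice. The difference, -0.40 ± 0.10, did not pass the test (edgeR FDR 0.418), and the WSB/EiJ effect of -0.20 lay among the classical strain effects, -0.31 to -0.03. Its promoter is shown because it holds a heat shock element, the binding sequence of heat shock factors, which chaperone genes often carry. The stretch runs from 250 bases before to 50 bases after the RefSeq start site (GRCm38.p6, chr9:18292017-18292316, plus strand), and capitals mark 3 overlapping matches to GAA, TTC and GAA spaced 2 bases apart, read on both strands, that cover 23 bases across the start site.
Chordc1: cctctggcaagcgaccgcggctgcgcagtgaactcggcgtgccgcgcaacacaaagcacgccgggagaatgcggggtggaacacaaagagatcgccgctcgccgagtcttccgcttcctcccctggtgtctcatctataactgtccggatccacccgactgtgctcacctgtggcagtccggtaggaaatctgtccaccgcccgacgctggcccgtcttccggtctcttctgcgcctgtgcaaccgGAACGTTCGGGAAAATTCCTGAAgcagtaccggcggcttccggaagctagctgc
Of 32851 RefSeq promoters of this length 0.603% hold that pattern, and Chordc1 alone did among the 26 of the 35 named genes found in the table. It was picked from 8 patterns after the matches had been seen. The other heat shock patterns were GAANNTTC (7.86% of promoters) and TTCNNGAA (8.52%). Some Chordc1 matches to these overlap the longer pattern, and a further TTCNNGAA match lies downstream of the capitals, in lower case. The nuclear receptor patterns were AGGTCA (16.3%), a pair of AGGTCA 1 base apart (0.0396%) and a pair of AGGNCA 1 base apart (0.381%). The last 2 were TCCC and GGGA 2 bases apart, bound by EBF factors (0.904%), and TTGCGCAA, bound by CEBP factors (0.183%). Ppid and Bcl7a are not among the 26.

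Cd36 (chromosome 5, 17781690 to 17888801, minus strand) encodes a fatty acid transporter of fat cells, muscle, macrophages and capillary endothelium. It was the one gene called in both class means with opposite signs. The call in the classical mean was lost without 129S1/SvImJ mouse 3. Control limbs read 86.0 to 231 CPM in wild-derived mice (median 107) and 49.7 to 267 CPM in classical mice (median 138), and immobilized limbs 104 to 260 (median 164) and 54.4 to 194 CPM (median 84.7). The levels of the control limbs overlapped almost fully, and those of the immobilized limbs in part. In the wild-derived strains it rose by 0.50 ± 0.13 (edgeR FDR 0.0248), higher in 7 of 9 mice, and in the classical strains it fell by 0.44 ± 0.11 (FDR 0.0406), lower in 9 of 12 mice. The difference was 0.94 ± 0.17 (95% interval 0.57 to 1.30), which did not pass across all genes (FDR 0.135). Strain effects ranged from 0.21 (WSB/EiJ) to 0.88 (CAST/EiJ) and from -0.99 (NOD/ShiLtJ) to 0.14 (C57BL/6J). Between the 2 classes' nearest strains, WSB/EiJ and C57BL/6J, the gap was smaller than the spread of their mice.

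A Cd36 promoter (GRCm38.p6, chr5:17835847-17836146, minus strand, printed as the gene reads) is shown because Cd36 is the gene called in both class means with opposite signs. Its start site lies inside the span of the gene given above, and no other Cd36 start site was searched. Capitals mark the 1 match of this stretch to AGGTCA, the core element bound by nuclear receptors such as PPARG, on the opposite strand.
Cd36: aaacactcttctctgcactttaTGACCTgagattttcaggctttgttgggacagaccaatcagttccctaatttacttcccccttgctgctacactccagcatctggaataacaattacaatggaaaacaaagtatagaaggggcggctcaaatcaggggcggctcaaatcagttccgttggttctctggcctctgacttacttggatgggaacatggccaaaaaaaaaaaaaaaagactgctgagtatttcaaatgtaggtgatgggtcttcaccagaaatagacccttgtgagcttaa
The pattern occurs in 16.3% of all promoters and in 2 of the 11 adipocyte list promoters in the table. The pair of AGGTCA 1 base apart occurred in 0 of the 26 named genes' promoters.

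Cd36 belongs to the adipocyte list, whose 18 tested genes all had a positive difference, higher in the wild-derived strains. Their median difference was 1.02 on the log2 scale, beside -0.02 over all genes. None passed the FDR threshold. An unadjusted p under 0.05 was reached by 13 of 18, all higher, where 4.04% of all genes reached it in that direction. Every wild-derived strain effect lay above every classical one in 7 of the 18, beside 2.32% of all genes. Within the classes, 5 of 18 rose in the wild-derived mean (6.25% of all genes rose): Fabp4, a fatty acid carrier, by 0.95, Lpl, which frees fatty acids from lipoproteins, by 0.81, Car3 by 1.43, the desaturase Scd1 by 1.35, and Cd36. In the classical mean 0 rose and Cd36 fell (0.608% of all genes fell), and 0 fell without 129S1/SvImJ mouse 3.

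Car3, a carbonic anhydrase abundant in fat cells and slow muscle fibres, had a difference of 1.80 ± 0.36 (edgeR FDR 0.166). Control limbs read 95.5 to 1530 CPM in wild-derived mice (median 349) and 115 to 2660 CPM in classical mice (median 291), and immobilized limbs 420 to 1560 (median 814) and 86.9 to 1600 CPM (median 305). It was 2.92 higher in the immobilized limb in CAST/EiJ on the log2 scale, 0.70 in PWK/PhJ and 0.67 in WSB/EiJ, while classical effects spanned -0.81 to 0.45. Lpl went from a median of 291 to 420 CPM in wild-derived mice and from 188 to 153 CPM in classical mice, with overlapping ranges. Adipoq, the adipocyte hormone adiponectin, gave strain effects of 0.78, 0.47 and 0.35 in CAST/EiJ, PWK/PhJ and WSB/EiJ and -0.51 to 0.21 in the classical strains. Its difference was 0.73 ± 0.29 (edgeR FDR 0.574). Plin4 and Plin1, lipid droplet coats, differed by 1.92 ± 0.53 and 1.38 ± 0.56. Pparg, the transcription factor of fat cell formation, differed by 0.52 ± 0.16. G0s2, an inhibitor of fat breakdown, differed by 0.76 ± 0.19, and Hcar2, a receptor on fat cells and myeloid cells, by 1.56 ± 0.40 (FDR 0.418 for each). Both were picked for strain effects in separate ranges, so that separation is no result.

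By strain, the median adipocyte effect was 1.5 in CAST/EiJ, 0.40 in PWK/PhJ and 0.36 in WSB/EiJ, and -0.41, 0.36, -0.61 and -0.44 in 129S1/SvImJ, C57BL/6J, NOD/ShiLtJ and NZO/HlLtJ. C57BL/6J therefore sat with PWK/PhJ and WSB/EiJ. The mean of the list was higher in the immobilized limb in 7 of 9 wild-derived mice (-0.97 to 1.96) and 4 of 12 classical mice (-1.28 to 0.58). The median difference was 0.71 without CAST/EiJ and 1.04 without NZO/HlLtJ mouse 4, where 3 of 18 fell in the classical mean. Among the strains with LT or RT in their library names alone (PWK/PhJ and WSB/EiJ against C57BL/6J) it was 0.21. The count of 13 of 18 higher at an unadjusted p under 0.05 was 13 without NZO/HlLtJ mouse 4. Over all fits without 1 mouse it ran from 7 to 15. Leaving out 1 mouse gave 2 (without CAST/EiJ mouse 2) to 10 (without PWK/PhJ mouse 6) of the 18 called in the wild-derived mean. Muscle levels also differed between limbs and classes, and several of these genes (Cd36, Lpl, Car3, Slc2a4) are expressed in muscle. With the muscle score as a term the median was 0.98.

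**Figure D3:**
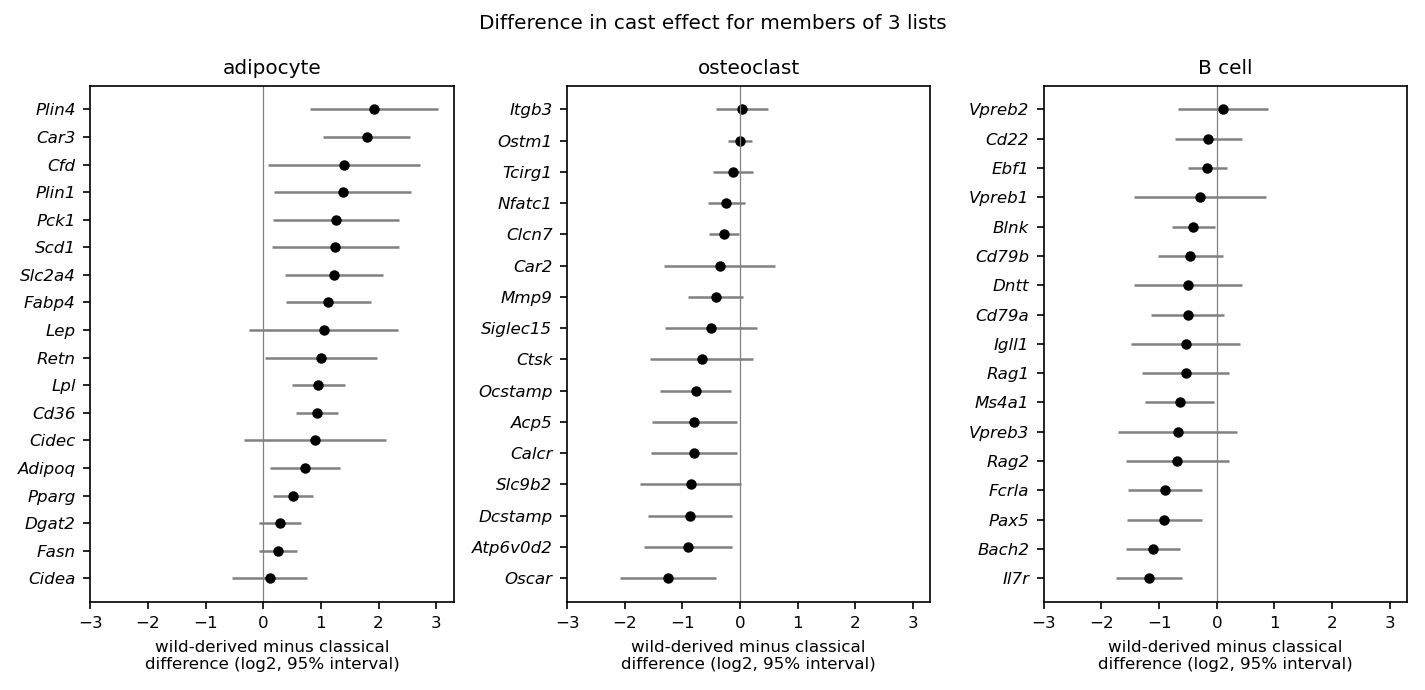
Points are the wild-derived minus classical difference in cast effect (x axis, log2) and lines its 95% interval for tested members (y axis) of the adipocyte (18 genes), osteoclast (16) and B cell lists (17 of the 18). All 18 adipocyte genes lie right of 0, and 14 of 16 osteoclast and 16 of 17 plotted B cell genes lie left of it, but no single gene here passed an FDR of 0.05.

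B cell genes went the other way. In the wild-derived mean 9 of 18 fell (3.32% of all genes fell), and in the classical mean 0 of 18 fell (0.608% of all genes). The classical effects leaned down as well, with 1 of 18 positive and a median of -0.19, or -0.30 without NZO/HlLtJ mouse 4. Bach2, a transcription factor of B cells, read 11 to 73.9 CPM in wild-derived control limbs (median 22.7) and 7.20 to 21.2 CPM in their immobilized limbs (median 9.54). In classical mice it read 9.71 to 21.8 (median 13.1) and 6.92 to 19.7 CPM (median 12.2). It was lower in 9 of 9 wild-derived and 8 of 12 classical mice. The wild-derived effect was -1.31 and the classical effect -0.20 (edgeR FDR 0.000358 and 0.499), with a difference of -1.11 ± 0.22 (FDR 0.163). Il7r, the receptor chain that early lymphoid cells need, went from a median of 20.1 to 9.5 CPM in wild-derived and from 9.87 to 9.13 CPM in classical mice. Its difference was -1.18 ± 0.27 (FDR 0.335). The largest falls were in CAST/EiJ, with effects of -2.53 for Bach2 and -2.84 for Il7r.

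Other B cell genes that fell in the wild-derived mean included Vpreb3, Rag1, Rag2, Pax5, Blnk and Fcrla, from -1.30 (Rag2, part of the recombinase that assembles antigen receptors) to -0.57 (Blnk, an adaptor of the B cell receptor). In the difference 17 of 18 were negative with a median of -0.54, none was called, and 6 had an unadjusted p under 0.05 in the lower direction, where 3.90% of all genes did. The strain medians were -1.36, -0.60 and -0.42 in CAST/EiJ, PWK/PhJ and WSB/EiJ, and -0.13, -0.17, -0.60 and 0.17 in 129S1/SvImJ, C57BL/6J, NOD/ShiLtJ and NZO/HlLtJ. NOD/ShiLtJ thus lay among the wild-derived strains. Without CAST/EiJ the median difference was -0.24, and without NZO/HlLtJ mouse 4 it was -0.41, with 4 genes at an unadjusted p under 0.05. The classes differed before casting: Rag1 was 1.72 higher in wild-derived than classical control limbs on the log2 scale (FDR 0.000552), Il7r 1.0 higher and Bach2 1.02 higher. The plasma cell gene Irf4 differed by -0.88 ± 0.25 in cast effect.

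Osteoclast genes rose in the classical strains. In the classical mean 12 of 16 rose (2.78% of all genes rose), and in the wild-derived mean 1 of 16 did, equal to the 6.25% of all genes that rose. That gene was Ostm1, a subunit of the chloride transporter that acidifies the resorption pit. Acp5, the acid phosphatase that stains osteoclasts, was higher in 12 of 12 classical mice, going from a median of 550 to 1310 CPM (199 to 1620 and 639 to 3190). In wild-derived mice it went from a median of 875 to 1260 CPM (542 to 1740 and 510 to 3290), higher in 6 of 9. The effects were 1.17 (edgeR FDR 0.0178) and 0.38 (FDR 0.385), and the difference -0.79 ± 0.35 (FDR 0.607). Ctsk, the collagen-cutting protease of osteoclasts, had effects of 1.66 (FDR 0.0117) and 1.0 (FDR 0.0613), with a difference of -0.66 ± 0.42. Dcstamp and Ocstamp, which osteoclast precursors need to fuse, differed by -0.86 ± 0.35 and -0.77 ± 0.29, and Oscar, a collagen receptor of osteoclasts, by -1.25 ± 0.39. For Oscar every wild-derived strain effect was below every classical one.

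In the difference 14 of 16 osteoclast genes were negative, with a median of -0.58 and 0 called. At an unadjusted p under 0.05 there were 7, all lower, where 3.90% of all genes were. That count ran from 2 to 11 without 1 mouse. Strain medians were 0.50, 0.18 and -0.12 in CAST/EiJ, PWK/PhJ and WSB/EiJ and 0.38, 0.54, 1.34 and 0.83 in 129S1/SvImJ, C57BL/6J, NOD/ShiLtJ and NZO/HlLtJ, so that CAST/EiJ overlapped the classical strains. Without NZO/HlLtJ mouse 4 the classical count stayed at 12 of 16 and the median difference was -0.78, with 11 genes at an unadjusted p under 0.05. Without C57BL/6J mouse 4 the classical count was 3. Of 11 regulators of osteoclasts, 2 rose in each class mean (6.25% and 2.78% of all genes): Sema4d in both, the receptor RANK (Tnfrsf11a) in the classical mean and Ephb4 in the wild-derived mean. The classical count was 0 without 129S1/SvImJ mouse 6 and 4 without NZO/HlLtJ mouse 4, and the wild-derived count 1 without CAST/EiJ mouse 3. The RANK ligand gene Tnfsf11 differed by -0.34 ± 0.30 and its decoy receptor Tnfrsf11b by 0.39 ± 0.52 (FDR 0.791 and 0.882). The sign of the Tnfrsf11b value changed without CAST/EiJ.

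**Figure D4:**
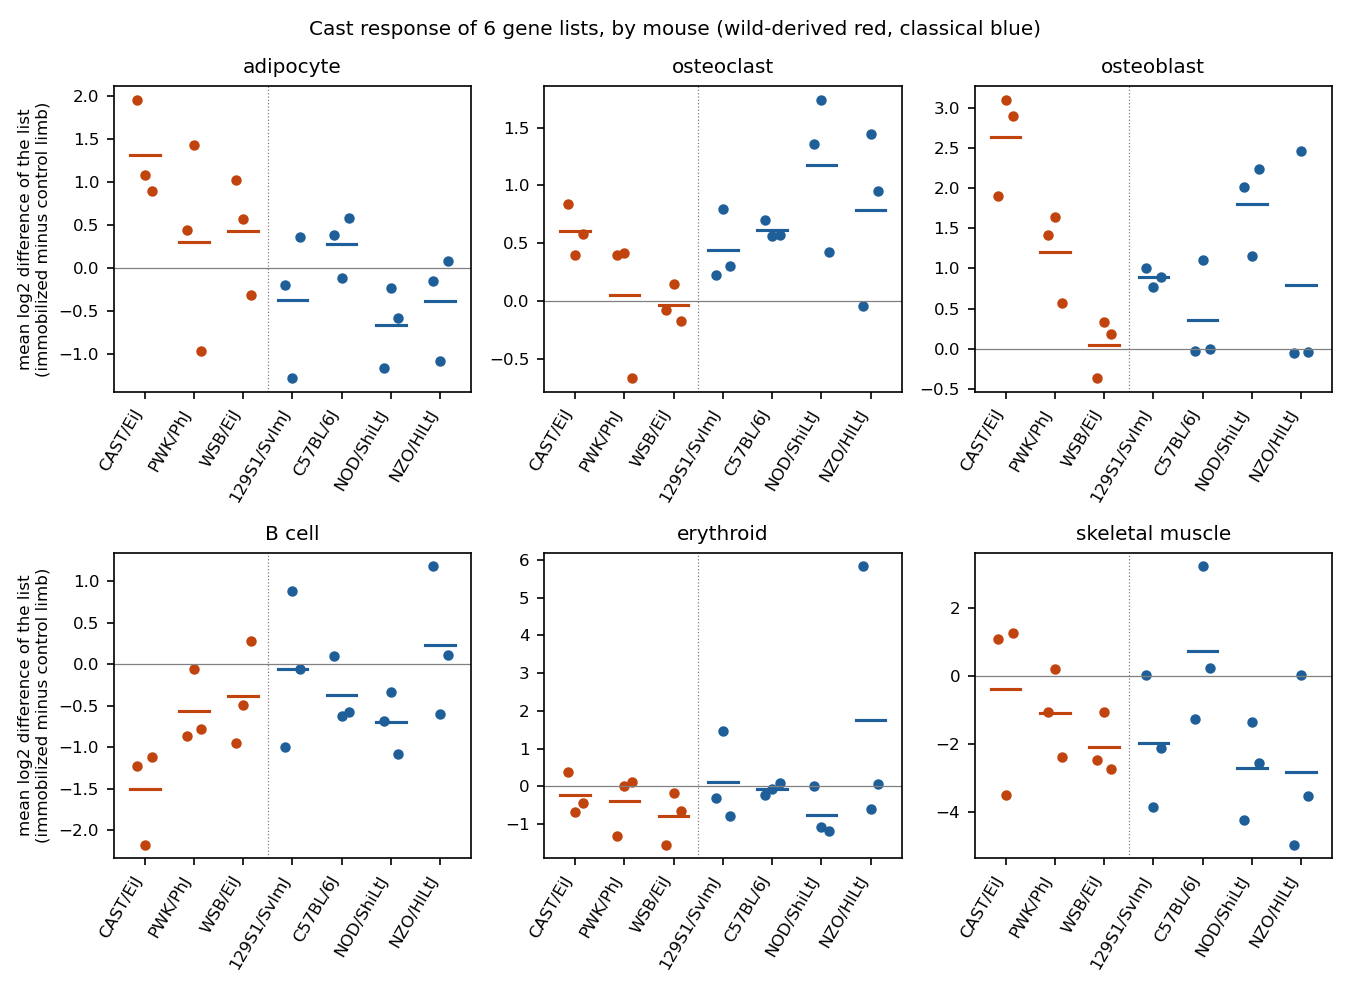
Each point is the mean log2 difference between limbs over the tested genes of a list in 1 mouse (y axis), grouped by strain (x axis; wild-derived red, classical blue), with bars at the mean of 3 mice, for 6 lists. The adipocyte mean is positive in 7 of 9 wild-derived and 4 of 12 classical mice, osteoblast means are highest in CAST/EiJ, and the erythroid value of 5.83 in NZO/HlLtJ mouse 4 stands apart.

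Many bone formation genes rose in both classes. In the osteoblast list 17 of 22 rose in the wild-derived mean (6.25% of all genes rose) and 15 of 22 in the classical mean (2.78% of all genes). In the list of collagen folding and secretion 21 and 13 of 26 rose. Without 1 mouse those collagen counts ran from 14 (without CAST/EiJ mouse 3) to 22 in the wild-derived mean, and from 1 (without C57BL/6J mouse 4) to 18 (without NZO/HlLtJ mouse 4) in the classical mean. Colgalt1, a collagen glycosyltransferase, was the 1 gene of the latter list that fell in the wild-derived mean. Col1a1, the main bone collagen, went from a median of 6210 to 25700 CPM in wild-derived mice and from 6770 to 11600 CPM in classical mice, with effects of 2.05 (edgeR FDR 0.00147) and 1.33 (FDR 0.0212). Ranges were wide, with immobilized limbs at 5620 to 87400 and 6150 to 114000 CPM, and the difference was 0.73 ± 0.43 (95% interval -0.18 to 1.63, FDR 0.702). Bglap, osteocalcin, rose by 1.38 and 1.14 (FDR 0.0193 and 0.0447), a difference of 0.24 ± 0.45. The smallest osteoblast count in a fit without 1 mouse was 0 of 22 in the classical mean, without C57BL/6J mouse 4. Without NZO/HlLtJ mouse 4 the counts were 17 and 16.

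The class means hid a wide spread among the wild-derived strains. The median osteoblast effect was 2.93 in CAST/EiJ, 1.22 in PWK/PhJ and 0.06 in WSB/EiJ, beside 0.34 (C57BL/6J) to 1.82 (NOD/ShiLtJ) in the classical strains. In CAST/EiJ the 3 mice had list means of 1.90, 3.10 and 2.90, and in WSB/EiJ -0.37, 0.33 and 0.18. The median difference between the classes, 0.39, became -0.31 without CAST/EiJ and 1.11 without WSB/EiJ. Sost, the osteocyte inhibitor of bone formation, spanned -1.94 to 1.52 in wild-derived and -1.70 to 4.23 in classical mice, a difference of -1.04 ± 0.57 (edgeR FDR 0.676). Growth plate chondrocyte genes had a median difference of -0.70 with 0 called of 17. Its strain medians ran from -0.30 (WSB/EiJ) to 3.81 (NZO/HlLtJ), and without NZO/HlLtJ it was 0.10.

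**Figure D5:**
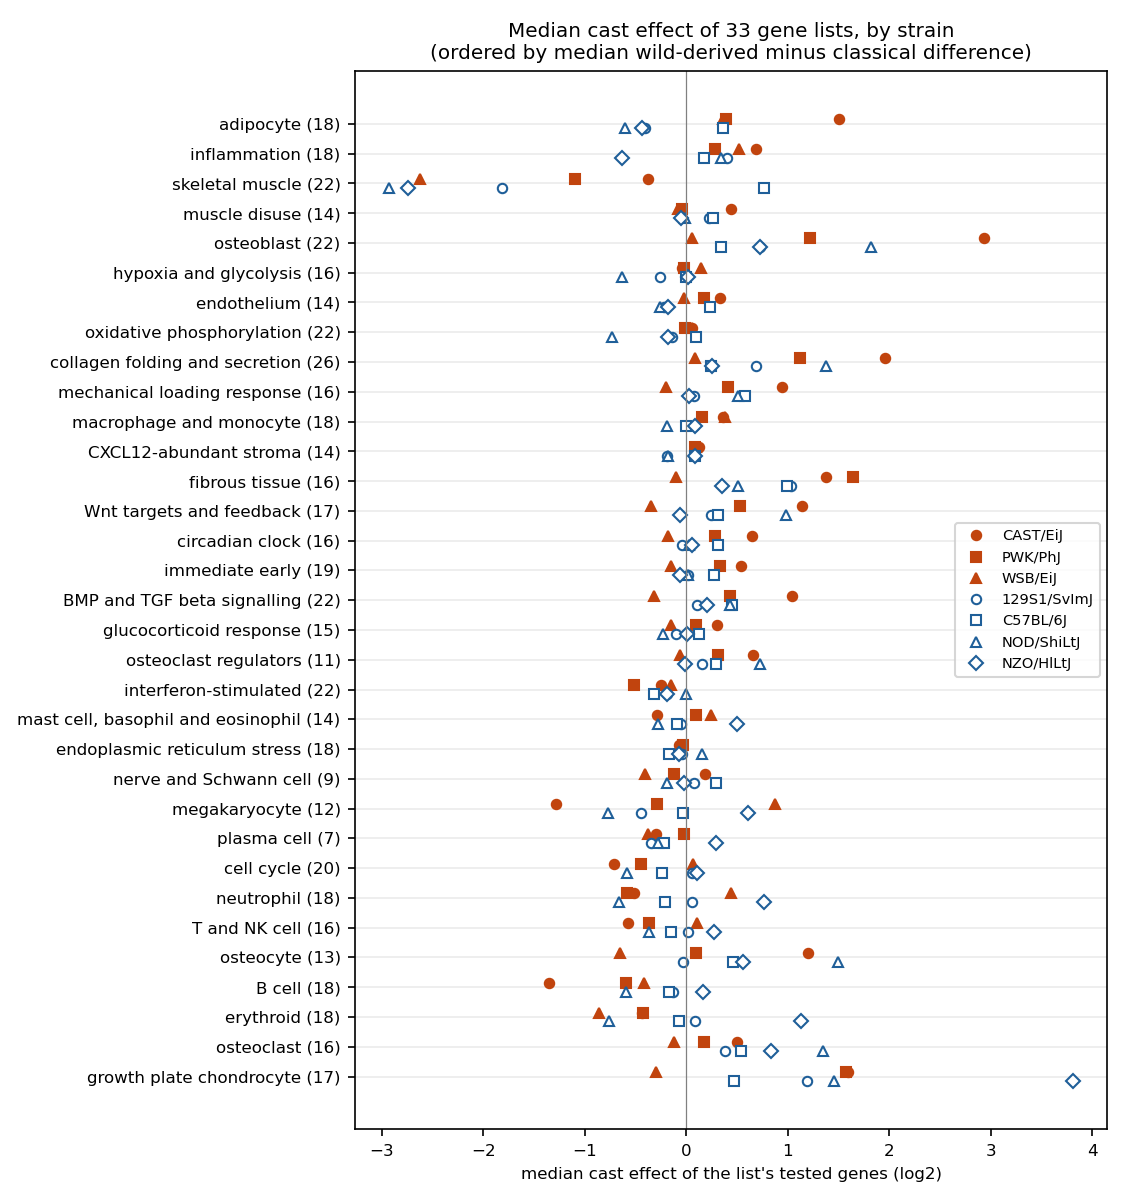
Each symbol is the median cast effect (x axis, log2) of the tested genes of 1 of 33 lists (y axis, number of genes in brackets) in 1 strain, with wild-derived strains filled and classical strains open, ordered by the median difference between classes. CAST/EiJ lies far right for osteoblast (2.93) and adipocyte (1.5) genes while WSB/EiJ is near 0 for most bone lists, and skeletal muscle spans -2.92 (NOD/ShiLtJ) to 0.77 (C57BL/6J).

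When each wild-derived strain was set against the classical mean, CAST/EiJ differed in 179 genes (1.12%), 116 higher and 63 lower. PWK/PhJ and WSB/EiJ differed in 0 genes each at FDR 0.05 by edgeR, with 802 (5.03%) and 1200 (7.52%) at an unadjusted p under 0.05, and in 7 and 20 by DESeq2. A test of differences among the 3 wild-derived effects called 114 genes (0.715%), and among the 4 classical effects 2 (0.0125%). The CAST/EiJ count was 2 without its mouse 3, 15 without mouse 4, 86 without mouse 2 and 644 without NZO/HlLtJ mouse 5. The count among the wild-derived strains was 1 without CAST/EiJ mouse 3, CAST/EiJ mouse 4 or WSB/EiJ mouse 4 and 489 without NZO/HlLtJ mouse 4.

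The CAST/EiJ calls held genes of several lists. Among collagen genes and the enzymes that fold and trim collagen, Col5a1, Col22a1, Crtap, Pcolce, Creb3l1, Bmp1 and Fkbp10 rose further in CAST/EiJ, by 1.34 (Crtap) to 2.34 (Col22a1) more than the classical mean. Kazald1, an osteoblast secreted protein, was 2.14 higher, Col11a2, a cartilage collagen chain, 2.57, and Pdgfra, the stromal growth factor receptor, 1.42. The secreted Wnt modulators Apcdd1 and Sfrp2 were also higher, Apcdd1 by 2.73 and Sfrp2 by 2.43. Adipocyte genes were Car3 (3.28 higher), Lpl (1.60) and Cd36 (1.32). Lymphoid genes were lower: Il7r by -2.61, Rag1 by -2.42, Bach2 by -2.33 and Irf4 by -1.89. For Kazald1, Creb3l1, Bmp1, Col11a2, Pdgfra and Rag1 the difference between the class means had an unadjusted p above 0.05.

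The remaining named genes did not pass the test either. They had the smallest p-values in each direction, either of all genes eligible to be named or of those with non-overlapping strain effects. H1f0, a linker histone of resting cells, rose in both classes, by 1.14 and 0.54 (edgeR FDR 2.22e-06 and 0.0058), and was higher in 9 of 9 wild-derived and 11 of 12 classical mice. The difference was 0.59 ± 0.11 (FDR 0.141). Cfb, complement factor B, read 23.8 to 68.3 CPM in wild-derived immobilized limbs against 5.95 to 69.2 CPM in their controls, and 20.3 to 50.2 against 15.2 to 72.6 CPM in classical mice. Its difference of 0.93 ± 0.21 came mainly from CAST/EiJ, whose effect was 2.0 beside 0.61 and 0.29. Pecr, a reductase of fatty acid elongation, rose in 9 of 9 wild-derived mice, by 0.27 to 1.43, and changed by -0.36 to 0.33 in classical mice, a difference of 0.73 ± 0.14. Elovl7, a fatty acid elongase, differed by 0.99 ± 0.22, with 1 mouse (PWK/PhJ mouse 6) at 2.52. Tmem132b, a neuronal membrane protein at a mean of 2.43 CPM, differed by 2.49 ± 0.47, and Asb4, a ubiquitin ligase subunit at 2.30 CPM, by 1.82 ± 0.40. Hid1, needed to form secretory granules, differed by 0.87 ± 0.20.

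Among those lower in the wild-derived strains, Bmf, a cell death protein of the BCL2 family, rose in 12 of 12 classical mice by 0.10 to 1.01 and was higher in 3 of 9 wild-derived mice (difference -0.50 ± 0.12, edgeR FDR 0.357). Cnp, a phosphodiesterase best known from myelin, differed by -0.62 ± 0.15, with -1.75 in CAST/EiJ and -0.40 and -0.18 in the other wild-derived strains. Spg11, a lysosomal protein, differed by -0.54 ± 0.12. Its control level was 612 to 693 CPM in the 3 PWK/PhJ mice and 25.1 to 51.4 CPM in all other mice of both classes, and its cast effect was -0.91 in PWK/PhJ and -0.18 to 0.52 in the other strains. Uhrf2, Primpol and Zfp322a were picked for strain effects that did not overlap between the classes, so the lack of overlap is no result. They differed by -0.42 ± 0.11, -0.55 ± 0.14 and -0.49 ± 0.12. Atg16l2, whose strain effects also did not overlap, differed by -0.50 ± 0.12. Primpol, a primase that restarts DNA replication, was lower in 9 of 9 wild-derived mice and 6 of 12 classical mice, and its 3 wild-derived strain effects were -0.59, -0.51 and -0.53. Reps2, an endocytosis adaptor, differed by -0.61 ± 0.13. Over all genes, strain effects of the classes did not overlap in 806 (5.05%), 370 above and 436 below, and no gene had mouse differences that did not overlap.

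Skeletal muscle genes had a lower level in the immobilized limb in both classes, with median effects of -1.24 (wild-derived, 0 of 22 called) and -1.73 (classical, 6 of 22 fell, beside 0.608% of all genes). Without 1 mouse the classical count ran from 1 (without 129S1/SvImJ mouse 6) to 8 (without 129S1/SvImJ mouse 2). Single mice ran from -3.50 to 1.25 and from -4.97 (NZO/HlLtJ mouse 4) to 3.21 (C57BL/6J mouse 4). Acta1, skeletal actin, had a difference of 0.49 ± 1.19, whose sign changed under 6 of the 18 alternatives other than leaving out a mouse. Actn2, of the muscle Z disc, differed by 2.77 ± 0.79. Oxidative phosphorylation genes were positive in the difference in 22 of 22, with a median of 0.27, 0 called and 4 higher at an unadjusted p under 0.05 (4.04% of all genes), a count that ran from 0 to 19 without 1 mouse. All 22 were negative in the classical mean and 13 positive in the wild-derived mean, with 0 called in each, but 13 fell in the classical mean without 129S1/SvImJ mouse 2. The median was 0.22 with the muscle score in the model. Hypoxia and glycolysis genes, which include the muscle-rich enzymes Aldoa and Ldha, had a median of 0.31, with 5 of 16 higher at an unadjusted p under 0.05 (4.04% of all genes), and 2 to 6 without 1 mouse. Their summed control level was higher in classical limbs (median 4569 against 1832 CPM), and so was that of muscle (9053 against 883.2 CPM).

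Erythroid genes had a negative difference in 18 of 18 with a median of -0.58 and 0 at an unadjusted p under 0.05. Without NZO/HlLtJ mouse 4 it was -0.24, and 3 of 18 fell in the wild-derived mean where 0 had. Neutrophil genes went from -0.24 to -0.02 without that mouse, and inflammation genes from 0.55 to 0.20. Of 18 inflammation genes 4 (Il1b, Ccl2, Ccl7 and Cxcl2) were higher at an unadjusted p under 0.05 (4.04% of all genes), and 2 without that mouse. Macrophage genes had a median of 0.24, and C1qa, C1qb and C1qc, the chains of complement C1q, were 0.39 to 0.51 higher. C1qa and C1qc rose in the wild-derived mean (edgeR FDR 0.0354 and 0.0257). Of 22 interferon-stimulated genes 4 fell in the wild-derived mean (3.32% of all genes fell) and 1 in the classical mean (0.608%). Without 1 mouse these counts ran from 2 (without CAST/EiJ mouse 3) to 8 (without PWK/PhJ mouse 6) and from 0 (without WSB/EiJ mouse 4) to 3 (without PWK/PhJ mouse 6). The mean of that list was lower in the immobilized limb in 8 of 9 wild-derived and 12 of 12 classical mice, and its median difference was -0.07. Over all 33 lists, 0 of 541 genes tested were called in the difference, and 65 had an unadjusted p under 0.05, where 7.94% of all genes did.

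The levels themselves were also compared between the classes, within each limb. In control limbs 2973 of 15489 genes (19.2%) differed between wild-derived and classical mice, and in immobilized limbs 2481 of 15393 (16.1%). These comparisons share their libraries with the comparison of responses. Reads of all strains were assigned to the mm10 genome, which derives from C57BL/6J, and its part in the differences in level was not tested.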

How the data were processed

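Libraries were stranded mRNA libraries of the tibial metaphysis, sequenced in paired ends, per the labels' protocols. The deposited file holds raw gene counts, made by the authors with featureCounts on mm10, per the submitters' processing notes, which also name DESeq2. Aligner, annotation, strand setting and versions: not given in the sources used here. Of 32544 gene rows 7471 held no count in the 42 libraries, and 15948 passed edgeR's filter on low counts. In 27 rows the gene name read as a date. The 2 A/J control libraries, with 2335 and 50 counts, were not used. edgeR 4.0.16 (R 4.3.3) fitted TMM-scaled counts with a term for each mouse and a cast term for each strain, 14 residual degrees of freedom, and robust quasi-likelihood F tests with Benjamini-Hochberg adjustment at 0.05. The log2 mouse differences used a prior count of 2, and the CPM levels used none. Intervals are at the 95% level. Scripts were tested on simulated data. The limbs pair by animal. Deviations of the limbs of 1 mouse correlated with a median of 0.101 (-0.277 to 0.569, above 0.1 in 11 of 21 mice). Mice are the replicates and strains are fixed, and with strains as replicates no exact test of 3 against 4 can go below 0.0571. Alternatives were RLE scaling, no filter, no replicate block, A/J added, DESeq2 1.42.0, limma 3.58.1 on strain means, muscle or marrow scores as terms, library name patterns, and each strain or mouse left out. Members and lists were chosen with earlier results of these data known. Named genes were to be called genes, 10 and 8 per direction in 2 sets. The first set was to take the largest log2 differences. The second took the smallest p among genes whose strain effects did not overlap between the classes. With 1 gene called, the smallest p-values were used, and the minimum mean of 1 CPM and the exclusion of pseudogenes and predicted genes were also applied to the second set, which the rule did not state. A further set was fixed by name. Coordinates come from GENCODE M21, where 15477 tested genes matched by symbol, and promoters from RefSeq. Some single genes of the lists are not reported here.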

Additional observations from a re-analysis of the deposited data

Results flagged for a closer look

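Bcl7a was the gene whose cast effect differed between wild-derived and classical strains in the edgeR test, by -0.69 on the log2 scale. The test of CAST/EiJ against the classical mean called 179 genes, the test among the 3 wild-derived effects 114 genes, and the test among the 4 classical effects 2 genes, the predicted genes Gm4070 and Gm28438. For Elovl7, PWK/PhJ mouse 6 stood apart from the other wild-derived mice with a log2 difference of 2.52 between limbs, where the control limb read 0.70 CPM and the immobilized limb 5.17 CPM. That was 1 of 68 sets of 9 wild-derived mice looked at in this way, and chance marks about 1 in 20.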

How the results depend on the processing

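The count of genes called between wild-derived and classical responses was 1, and stayed at 1 with RLE scaling, no filter, A/J mouse 1 added to the fit, or NOD/ShiLtJ or NZO/HlLtJ left out, though in those last fits the gene was not Bcl7a. It was 0 with no replicate block, with strain as the unit of replication, with B cell and erythroid scores, in strains with LT or RT names, and without CAST/EiJ or 129S1/SvImJ. It was 2 with the muscle score and without PWK/PhJ or C57BL/6J, 5 without WSB/EiJ, 8 in strains with names ending in L or R, 20 with DESeq2 and 47 with A/J mouse 1 as a classical strain. Leaving out 1 mouse gave 0 to 4. Bcl7a kept its sign under every alternative run, with an FDR of 0.424 with no replicate block.

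The wild-derived count was 801 with no replicate block, and 630 to 2547 without 1 mouse. The classical count was 332 with no filter, 71 with no replicate block, 1216 with DESeq2, and 51 to 1361 without 1 mouse. For CAST/EiJ it was 97, 30 and 797 under the same settings and 2 to 644 without 1 mouse. PWK/PhJ gave 7 and WSB/EiJ 20 with DESeq2, and 0 to 1 and 0 to 2 without 1 mouse. The test among wild-derived strains gave 4 with no replicate block and 1 to 489 without 1 mouse. Among classical strains it gave 1 with no filter and 1 to 4 without 1 mouse. Counts without 1 mouse were 2217 to 3471 in control limbs and 2024 to 2712 in immobilized limbs.

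Signs changed for genes that did not pass the test, and the cause was not tested. Without CAST/EiJ, Col1a1 was -0.144, Bglap -0.723, Tnfrsf11b -0.123, Acta1 -0.069 and Rag1 0.405. Bglap was -0.003 without C57BL/6J and Sost 0.045 in strains with names ending in L or R. With B cell and erythroid scores Tnfrsf11b was -0.413, Acta1 -0.507 and Rag1 0.088. Acta1 was -0.13 with no replicate block, -0.41 with the muscle score, -2.992 in strains with LT or RT names and -0.099 without NZO/HlLtJ, and Rag1 was 1.236 in strains with LT or RT names. Leaving out 1 mouse gave -0.034 (NZO/HlLtJ mouse 4) to 0.965 for Acta1. The 12 and 9 mice per class limit what could be detected.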

Other observations

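Ppid and Chordc1 led to a look at 18 genes of the heat shock response and of Hsp90 partners, picked after their values had been seen. In the difference 15 of 18 were lower in the wild-derived strains, with a median of -0.09. An unadjusted p under 0.05 was reached by 3 (Ppid, Chordc1 and Hsph1), all lower, where 3.90% of all genes reached it in that direction. Ppid and Chordc1 prompted the choice of the set, and Hsph1 was picked with its value known, so the counts lend no support. Hsph1, a nucleotide exchange factor of Hsp70, fell in both class means, with effects of -1.01 and -0.67 (edgeR FDR 0.000137 and 0.0076), a difference of -0.34 ± 0.15. In the wild-derived mean 6 of 18 fell (3.32% of all genes) and in the classical mean 2 of 18 (0.608%), of which Ppid and Chordc1 are among the first and Ppid among the second, with medians of -0.22 and -0.19.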
